A study of Mus musculus with 8 samples.

Results

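The receptors of the low-density lipoprotein (LDL) receptor family were examined in testes of mice at postnatal day 5, with Lrp8 at their centre. The members were Lrp8, Vldlr, Lrp1, Lrp2, Lrp4, Lrp5, Lrp6, Lrp10 and Sorl1, 9 of the 23767 genes in the deposited table, found by their symbols. Together they had 24 of its 49139 transcripts. The transcript with the highest average of both group means stood for a gene, and all 5 Lrp8 transcripts were compared. Lrp8 was selected on the deposited group means, in which it differed widely between the groups, so the comparison that chose it is described here and is not counted as evidence. The family around it was named with the same results in view.

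RNA was sequenced from testes in 4 samples of wild-type mice and 4 of mice with the genotype Dio3KO, all on the 129/SVJ background and of the same age. The design text calls them biological replicates, and whether each came from a single mouse is not stated. Dio3 is the gene of an enzyme that removes iodine from thyroid hormones and so inactivates them, and the title of the study names thyroid hormone regulated genes of the neonatal testis as its subject. How Dio3 was altered, and whether in every cell, is not stated by the labels. The authors deposited group means in RPKM (reads scaled to transcript length and to the size of the library) and the coefficient of variation (CV, the SD divided by the mean) of each group, so levels are given as the authors' means and single samples could not be shown. In place of single values, the range that the mean and the SD of 4 samples allow is given, since no sample can lie more than 1.5 SD from the mean of 4. Where these ranges do not meet, no sample of one group can have overlapped with any sample of the other. Depth per sample is unknown. "Rose" and "fell" are used only where the adjusted p in the authors' deposited table was below 0.05. The mean of Dio3 itself was 0.52 RPKM for wild type and 2.95 RPKM for Dio3KO (adjusted p = 0.0408, authors' deposited table), which goes against a loss of its transcript. The group is called Dio3KO-labelled for that reason, and each direction below rests on the label. The extraction text names hypothalami whereas the tissue label says testis. Of 15 neuronal and hypothalamic markers, 12 were below 1 RPKM in both groups. The other 3 were low, with wild-type and Dio3KO-labelled means of 1.89 and 1.05 RPKM (Pmch), 1.49 and 0.77 RPKM (Agrp) and 1.43 and 0.74 RPKM (Syt1). The Sertoli cell genes Ctsl (601 and 611 RPKM) and Amh (284 and 127 RPKM) were high.

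Proteins of this family are single-pass receptors whose extracellular part binds lipoproteins and other ligands and whose short cytoplasmic tail recruits adaptors for endocytosis or signalling. Lrp8, also called apolipoprotein E receptor 2, and Vldlr are the receptors through which reelin signals to the adaptor Dab1 in the developing brain. In testis, Lrp8 is known as the receptor on Sertoli cells that takes up selenoprotein P and so supplies selenium for developing sperm. Lrp5 and Lrp6 are coreceptors of Wnt proteins, Lrp4 is the receptor of agrin at the neuromuscular junction, and Lrp1 and Lrp2 (megalin) are large endocytic receptors. Sorl1 sorts cargo between endosomes and the Golgi.

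Lrp8 (ENSMUSG00000028613.14, plus strand of chromosome 4 from 107802261 to 107876840, GENCODE M21 on GRCm38, the assembly of mm10) ranked 6 of 9 by level among the members in wild-type testes and 3 of 9 in the Dio3KO-labelled testes. Its leading transcript, uc008uab.1, had a mean of 2.44 RPKM in wild type (CV 0.28) against 24.3 RPKM in the Dio3KO-labelled group (CV 0.15), a ratio of means of 9.98. The allowed ranges were 1.39 to 3.49 RPKM in wild type and 18.7 to 30.0 RPKM in the other group, so the lowest Dio3KO-labelled sample was above the highest wild-type sample. On the scale of log2(RPKM + 0.5) the difference was 3.08 ± 0.20 (SE computed from the CVs), and 4 of the 15225 genes that reached 1 RPKM in at least 1 of the groups had a larger one. The adjusted p in the authors' deposited table was 0.0111 for this transcript. A wild-type CV of 0.28 or more was found for 4.45% of the genes, whose median CV was 0.08, so the CV of Lrp8 was above that of most genes. Those genes were of all levels, and Vldlr, at 1.56 RPKM in wild type, had the same CV. Genes of a level like that of Lrp8 were not compared, so no greater variation between testes is read from its CV.

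All 5 Lrp8 transcripts moved together. In wild type their means lay between 1.53 RPKM (uc008uac.2) and 2.44 RPKM (uc008uab.1). In the Dio3KO-labelled group they lay between 17.5 and 24.3 RPKM for the same transcripts. The ratio of means was lowest for uc008uab.1 and between 11.5 and 11.8 for the other 4. Relative to uc008uab.1, uc008uai.1 stood at 69.3% in wild type and 81.4% in the Dio3KO-labelled group, and uc008uac.2 at 62.7% and 72.0%. The allowed ranges of both groups were apart for each transcript. Transcripts of 1 gene can share exons and reads and are not independent, and their exon structures were not used here.

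**Figure D1:**
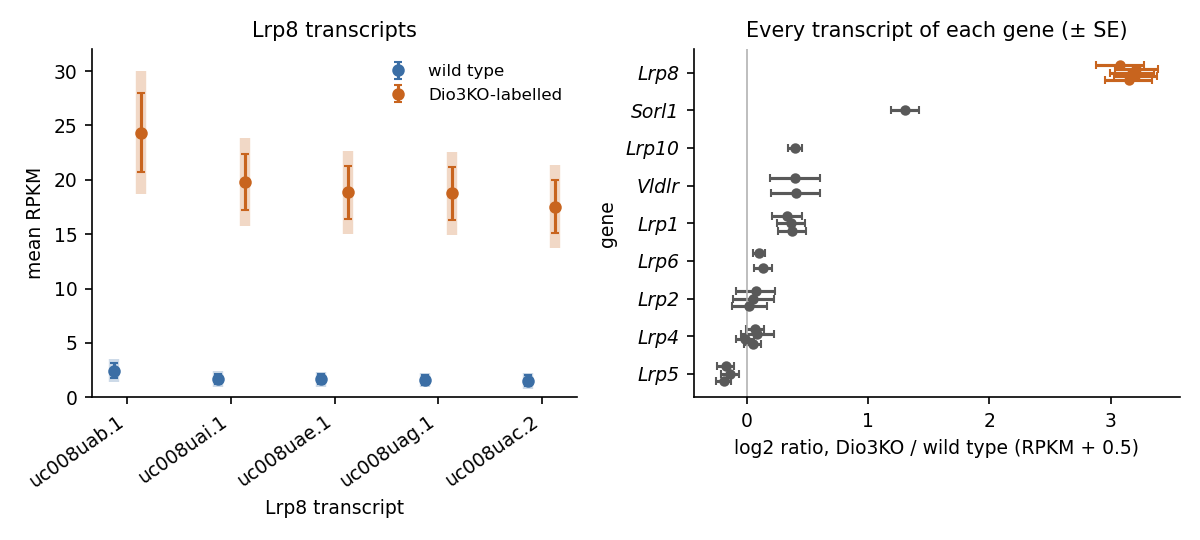
Left, mean RPKM of the 5 Lrp8 transcripts by group (points), with the SD computed from the CV (bars) and the range that 4 samples with this mean and SD allow (pale bands); right, the log2 ratio of Dio3KO-labelled to wild-type means, each with 0.5 RPKM added, for each transcript of each member (points, bars are ± SE). The Lrp8 transcripts sit between 3.08 and 3.21 on the right axis, above Sorl1 at 1.30 and the other members at 0.40 or less.

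Because Lrp8, Sorl1 and Lrp10 were the members that rose, the reference sequence before their start sites is shown. RefSeq (GRCm38.p6) lists windows before 3 alternative starts inside the Lrp8 gene, and the stretch before its most upstream start was not analysed here. For Sorl1 the window before its upstream start is shown. Each sequence reads 5′ to 3′ on the gene's strand and ends at the start site or, for the first Lrp8 window and that of Lrp10, where an annotated exon begins. Capitals mark AGGTCA, the core hexamer bound by thyroid hormone receptors and other nuclear receptors, and GGGCGG, the GC box, searched on both strands.
Lrp8 window 1, chr4:107802635-107802841, plus strand: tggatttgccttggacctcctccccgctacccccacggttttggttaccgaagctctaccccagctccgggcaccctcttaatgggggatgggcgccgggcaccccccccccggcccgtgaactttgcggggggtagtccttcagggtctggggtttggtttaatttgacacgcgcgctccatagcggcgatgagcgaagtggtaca
Lrp8 window 2, chr4:107822911-107823160, plus strand: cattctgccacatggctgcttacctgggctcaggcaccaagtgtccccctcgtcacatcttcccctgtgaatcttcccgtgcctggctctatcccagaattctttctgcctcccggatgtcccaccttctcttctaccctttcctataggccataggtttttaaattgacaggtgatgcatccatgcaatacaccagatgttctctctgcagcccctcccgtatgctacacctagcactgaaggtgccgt
Lrp8 window 3, chr4:107830703-107830952, plus strand: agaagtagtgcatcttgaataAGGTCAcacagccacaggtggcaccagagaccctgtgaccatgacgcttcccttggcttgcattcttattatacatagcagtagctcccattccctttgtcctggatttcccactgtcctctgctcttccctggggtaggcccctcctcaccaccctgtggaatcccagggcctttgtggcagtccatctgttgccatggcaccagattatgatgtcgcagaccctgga
Sorl1 window 1, chr9:42124298-42124547, minus strand: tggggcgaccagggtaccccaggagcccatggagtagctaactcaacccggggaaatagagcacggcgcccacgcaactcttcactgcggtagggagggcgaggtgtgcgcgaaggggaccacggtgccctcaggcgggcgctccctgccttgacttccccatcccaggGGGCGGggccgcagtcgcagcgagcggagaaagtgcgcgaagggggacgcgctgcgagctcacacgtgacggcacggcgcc
Lrp10 window 1, chr14:54463897-54464136, plus strand: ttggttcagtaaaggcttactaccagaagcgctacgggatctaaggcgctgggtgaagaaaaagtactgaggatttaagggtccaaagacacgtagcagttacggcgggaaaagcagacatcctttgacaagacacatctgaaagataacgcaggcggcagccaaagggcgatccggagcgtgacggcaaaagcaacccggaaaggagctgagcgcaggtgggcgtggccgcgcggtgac
One AGGTCA was found, in the third Lrp8 window, from base -229 to base -224 counted from the start site. Over all 32851 RefSeq windows of 250 bases, 14.0% held AGGTCA. A direct repeat of AGGTCA with 4 bases between the copies was in 0.0152% of all windows and in none of those printed. The Sorl1 window shown held GGGCGG from base -81 to base -76, a motif in 32.7% of all windows, and neither the Lrp8 windows nor that of Lrp10 held it. A second Sorl1 window, before an alternative start at chr9:42077214-42077463, held neither motif and is not printed. These matches describe the letters and do not show binding.

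Vldlr, the other reelin receptor, was low in both groups. Its mean was 1.56 RPKM in wild type (CV 0.28) against 2.21 RPKM in the Dio3KO-labelled group (CV 0.23), a log2 ratio of 0.40 ± 0.20. The adjusted p was 0.1796 in the authors' deposited table, and the allowed ranges met (0.89 to 2.23 and 1.42 to 2.996 RPKM). In wild type the mean of Lrp8 was 1.56 times that of Vldlr, and in the Dio3KO-labelled group it was 11.0 times. The second Vldlr transcript gave nearly the same values (1.53 and 2.18 RPKM).

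Among the endocytic and sorting receptors, Sorl1 had the second largest difference of the family. It rose from 2.54 RPKM (CV 0.09) to 7.01 RPKM (CV 0.15) (adjusted p = 0.0178, authors' deposited table), and the log2 ratio was 1.30 ± 0.11. The wild-type testes were between 2.17 and 2.91 RPKM and the Dio3KO-labelled testes between 5.37 and 8.65 RPKM at the widest, so the groups did not overlap. Lrp10, a receptor that cycles between the Golgi and the cell surface, rose by a smaller factor from a higher level. It went from 34.2 RPKM (CV 0.06) to 45.1 RPKM (CV 0.06) (adjusted p = 0.0111, authors' deposited table), and the log2 ratio was 0.40 ± 0.06. Its allowed ranges, 30.8 to 37.5 and 40.7 to 49.5 RPKM, were apart. Sorl1 and Lrp10 each had 1 transcript in the table.

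Lrp1 was the most abundant member in both groups. Its mean was 55.5 RPKM in wild type (CV 0.10) against 69.97 RPKM in the Dio3KO-labelled group (CV 0.14), a log2 ratio of 0.33 ± 0.12. The adjusted p was 0.1115 in the authors' deposited table, and the ranges met. With the moderated limma test, which pools the spread across genes, its adjusted p was 0.0216. The 3 Lrp1 transcripts had ratios of means from 1.26 to 1.30. Lrp2 was nearly absent, at 0.30 and 0.34 RPKM, and was the member left out by the minimum of 1 RPKM. Its wild-type CV of 0.58 was the widest in the family.

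The Wnt coreceptors and the agrin receptor differed little. Lrp6 had means of 21.8 and 23.3 RPKM, a log2 ratio of 0.10 ± 0.05 (adjusted p = 0.206, authors' deposited table). Lrp5 was the member with a lower mean in the Dio3KO-labelled group, at 11.2 RPKM in wild type and 9.81 RPKM there. Its log2 ratio was -0.18 ± 0.07 and its adjusted p was 0.1385 in the authors' deposited table, with the same sign in its 3 transcripts. Lrp4 had means of 2.08 and 2.20 RPKM and a log2 ratio of 0.07 ± 0.07. Of its 4 transcripts, 3 had a higher mean in the Dio3KO-labelled group and uc008kvw.2 had 1.38 and 1.36 RPKM. For each of these 3 genes the allowed ranges of the groups met. With both groups scaled to the same sum of RPKM, the log2 ratios were 0.19 (Lrp6), -0.08 (Lrp5) and 0.15 (Lrp4). The errors above do not include this choice of scale. None of the 3 passed limma's moderated test, in which Lrp5 had the smallest adjusted p of them (0.0535).

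Of the 8 members that reached 1 RPKM, 3 rose and 0 fell, where 14.0% of the 15225 genes rose and 15.9% fell in the authors' deposited table. With limma's moderated test 4 members were higher and 0 lower (18.6% and 23.2% of all genes), and at an unadjusted p below 0.05 it had 5 higher and 1 lower (22.0% and 28.9% of all genes). At a threshold of 0.01, 0 members rose and 0 fell in the authors' deposited table, beside 4.30% and 4.94% of all genes. Lrp8 is one of those that rose at 0.05 and was the reason for the choice, so nothing is read from this count. The allowed ranges were apart for the same 3 members, Lrp8, Sorl1 and Lrp10, and for 12.0% of all genes in the upward direction. The median log2 ratio of the other 7 was 0.33, and that of all genes was -0.05.

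The order of levels changed at the place of Lrp8. In wild type it ran Lrp1, Lrp10, Lrp6, Lrp5, Sorl1, Lrp8, Lrp4, Vldlr and Lrp2 from high to low. There the ranges of neighbours met between Sorl1 and Lrp8, Lrp8 and Lrp4, and Lrp4 and Vldlr, and were apart for the other neighbours. In the Dio3KO-labelled group Lrp8 stood between Lrp10 and Lrp6, with a range that met that of Lrp6, and Vldlr and Lrp4 could not be ordered. Lrp8 made up 1.86% of the summed RPKM of the family in wild type and 13.2% in the Dio3KO-labelled group. The sum over the other 8 members was 129 RPKM in wild type against 160.0 RPKM in the Dio3KO-labelled group.

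**Figure D2:**
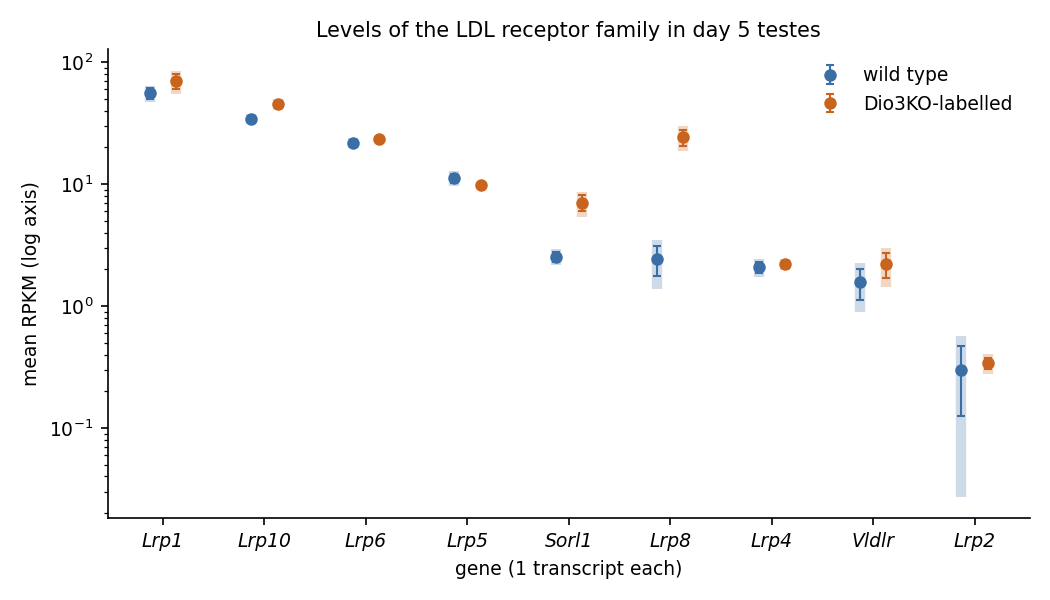
Mean RPKM on a log axis of the 9 members in wild-type (blue) and Dio3KO-labelled (orange) testes, ordered by the wild-type level, with the SD computed from the CV (bars) and the range that 4 samples allow (pale bands). Lrp8 goes from the level of Sorl1 and Lrp4 (2.44 RPKM) to that of Lrp6 (24.3 RPKM), Sorl1 rises to 7.01 RPKM, and the bands of Lrp1, Lrp6, Lrp5, Lrp4, Vldlr and Lrp2 meet between groups.

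Genes of the family's pathways were grouped in 5 lists, which were chosen with results of these data in view, so their counts are a description. Of 13 measured ligand genes, 7 rose and 1 fell, beside 14.0% and 15.9% of all genes. Their median log2 ratio was 0.54, and 4 other ligand genes were below 1 RPKM. Selenop, which encodes the selenium carrier taken up through Lrp8 and is listed under its older symbol Sepp1, rose from 87.7 RPKM (CV 0.11) to 138 RPKM (CV 0.09) (adjusted p = 0.0107, authors' deposited table). Its log2 ratio was 0.65 ± 0.10. Apoe, the apolipoprotein bound by most of these receptors, rose from 73.8 to 145 RPKM (adjusted p = 0.0074, authors' deposited table), and its allowed ranges were apart. Clu, an abundant secreted chaperone of Sertoli cells and a ligand of Lrp2 and Lrp8, rose from 797 to 1232 RPKM. The lipid transfer protein gene Pltp rose from 12.2 to 23.2 RPKM. The plasminogen activator genes Plat and Plau rose from 16.8 to 30.2 RPKM and from 2.77 to 4.53 RPKM. Rbp4, the plasma retinol carrier and the remaining gene that rose, had means of 3.34 and 5.09 RPKM and was named after its values were seen. Mdk, a heparin-binding growth factor, fell from 134 to 104 RPKM. Reln itself, the reelin gene, was at 5.22 and 5.79 RPKM (adjusted p = 0.3923, authors' deposited table) and was likewise named after its values were seen. The lipase gene Lpl (10.7 and 15.2 RPKM), Thbs1 (6.22 and 7.59 RPKM) and the agrin gene Agrn (15.3 and 15.2 RPKM) did not pass. With limma's moderated test Lpl was higher (adjusted p = 0.0322).

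Genes for folding, adaptors and turnover of the receptors included 7 that rose and 0 that fell among 18 measured (14.0% and 15.9% of all genes), and the median log2 ratio was 0.07. Lrpap1, the chaperone that keeps these receptors from binding ligands during folding, rose from 39.4 RPKM (CV 0.04) to 56.3 RPKM (CV 0.02) (adjusted p = 0.0027, authors' deposited table), and the log2 ratio was 0.51 ± 0.03. Dab2, an endocytic adaptor that binds the tails of several members, rose from 10.1 to 15.7 RPKM. The proteases Furin, Adam10 and Pcsk5 rose from 21.2 to 30.6 RPKM, from 23.3 to 28.9 RPKM and from 10.95 to 14.3 RPKM. The retromer gene Vps26a rose from 39.4 to 45.4 RPKM. Shc1 (32.2 to 35.4 RPKM), an adaptor named after its values were seen, rose as well. Mesd, the chaperone of Lrp5 and Lrp6, listed under its older symbol Mesdc2, had means of 28.9 and 27.9 RPKM without passing. Neither did Snx17 (40.3 and 40.7 RPKM) nor Vps35 (49.0 and 52.0 RPKM). Mylip, a ubiquitin ligase that marks Vldlr and Lrp8 for degradation, was at 3.93 and 3.81 RPKM, and was named after its values were seen.

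Of 27 measured genes of the reelin route, 5 rose and 3 fell, and the median log2 ratio was 0.09. In the authors' deposited table these shares were close to the 14.0% and 15.9% of all genes. Dab1, the adaptor that reelin receptors act through, had a mean of 1.63 RPKM in both groups (CV 0.17 and 0.06) and was named after its values were seen. Pik3r1, a regulatory subunit of phosphoinositide 3-kinase, rose from 12.4 RPKM (CV 0.26) to 26.7 RPKM (CV 0.09) (adjusted p = 0.0084, authors' deposited table). Rap1a (40.5 to 54.8 RPKM), Socs7 (11.0 to 12.8 RPKM), Ndel1 (28.8 to 33.2 RPKM) and Pafah1b1 (56.1 to 62.4 RPKM) rose by smaller factors. Crkl and Rapgef1, an adaptor and an exchange factor that act after Dab1, fell, from 24.8 to 19.0 RPKM for the former and from 15.0 to 12.8 RPKM for the latter. Pafah1b3, a catalytic partner of Pafah1b1, fell from 66.1 to 40.9 RPKM. Itgb1 (170 and 161 RPKM), Rap1b (81.9 and 92.9 RPKM) and Rnf7 (85.1 and 86.5 RPKM) did not pass. With limma's moderated test Rap1b was higher (adjusted p = 0.019). That test had 8 higher and 3 lower of the 27, beside 18.6% and 23.2% of all genes. At an unadjusted p below 0.05 it had 10 higher and 3 lower, beside 22.0% and 28.9% of all genes.

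Around Lrp4, Lrp5 and Lrp6, 4 of 19 measured partners rose and 5 fell, counts within a few genes of the all-gene shares of 14.0% and 15.9%, and the median log2 ratio was -0.07. Axin2, a feedback inhibitor often read as a target of Wnt signalling, rose from 6.29 to 9.88 RPKM (adjusted p = 0.0088, authors' deposited table). The Dickkopf receptor gene Kremen1 (5.59 to 7.56 RPKM), the Wnt enhancer Rspo1 (3.38 to 5.71 RPKM) and its receptor Lgr4 (22.1 to 27.9 RPKM) rose. Sostdc1, a secreted ligand of Lrp4 and Lrp6, fell from 2.03 to 0.93 RPKM and Dkk3 from 5.68 to 4.16 RPKM. Sostdc1 reached 1 RPKM only in wild type, the group where it was higher. Dok7, an adaptor of the agrin pathway, fell from 2.77 to 1.5 RPKM. The Dishevelled genes Dvl1 and Dvl2 fell, from 23.7 to 19.96 RPKM for Dvl1 and from 25.5 to 20.5 RPKM for Dvl2. Ctnnb1 (319.7 and 309.8 RPKM) and Axin1 (29.4 and 27.6 RPKM) did not pass.

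Of 9 measured relatives outside the set, 1 rose and 1 fell (14.0% and 15.9% of all genes), and the median log2 ratio was -0.01. Sort1, which like Sorl1 carries a Vps10 domain, rose from 16.4 to 29.2 RPKM (adjusted p = 0.008, authors' deposited table), and Sorcs2, another Vps10 receptor, fell from 29.9 to 24.6 RPKM. Ldlrad3 (11.4 and 9.76 RPKM), Ldlrad4 (10.7 and 7.88 RPKM) and Lrp12 (4.81 and 4.5 RPKM) did not pass in the authors' deposited table. With limma's moderated test Ldlrad3 (adjusted p = 0.0197) and Ldlrad4 (adjusted p = 0.00846) were lower. That test had 1 higher and 3 lower in this list, beside 18.6% and 23.2% of all genes. Counted once each, the genes of these 5 lists came to 83, of which 24 rose (28.9%) and 10 fell (12.0%), beside 14.0% and 15.9% of all genes.

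**Figure D3:**
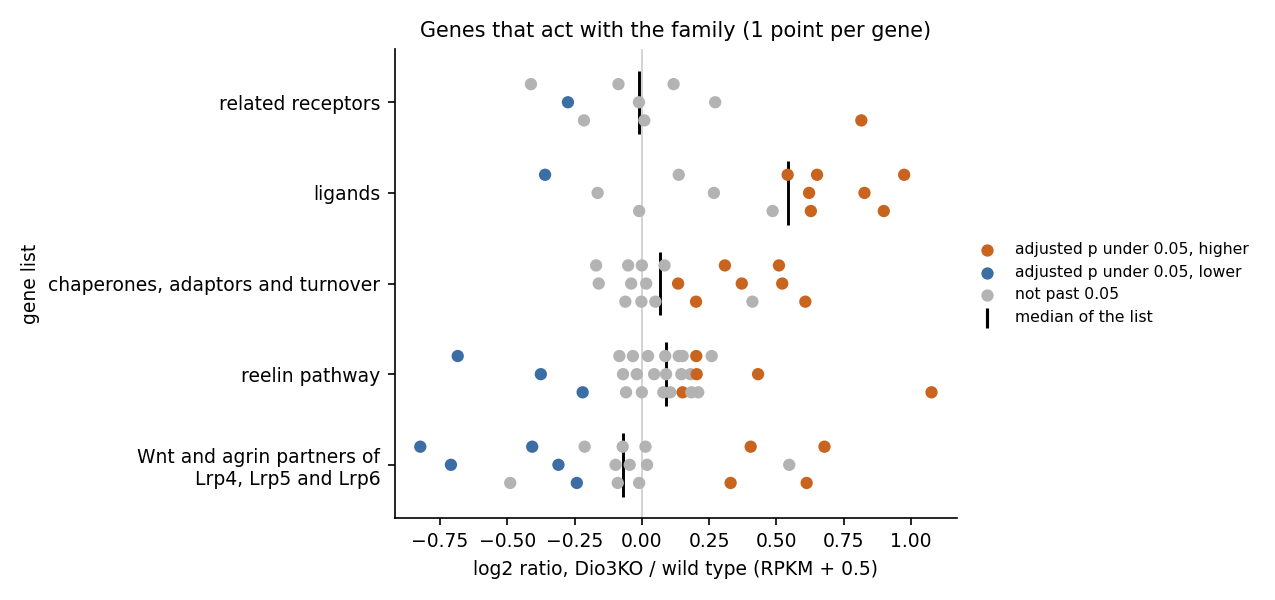
Log2 ratio of Dio3KO-labelled to wild-type means, each with 0.5 RPKM added, for the measured genes of 5 lists (1 point per gene; vertical spread within a list has no meaning), coloured by the deposited adjusted p and direction, with the median of each list as a black line. The ligand list has 7 orange points and 1 blue point and its median is at 0.54, whereas the Wnt and agrin list has 4 orange and 5 blue points and its median is at -0.07.

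Marker genes of the cell types in testis were counted in the same comparison, in which 14.0% of all genes rose and 15.9% fell. Of 10 macrophage markers, 8 rose and their summed means went from 86.4 to 173 RPKM. Cd163, one of the 8, reached 1 RPKM only in the Dio3KO-labelled group (0.51 and 1.09 RPKM). Of 9 endothelial markers 4 rose (70.4 and 87.6 RPKM summed), and all 9 had a log2 ratio above 0. Limma's moderated test had 10 macrophage and 6 endothelial markers higher and 0 lower in either list, beside 18.6% and 23.2% of all genes. Sertoli cell markers were split, with 4 that rose and 4 that fell of 11 measured (3071 and 3733 RPKM summed), Leydig cell markers had 2 and 1 of 7 (472 and 643 RPKM), and myoid markers 2 and 1 of 7 (601 and 555 RPKM). None of the 10 germ cell markers passed in the authors' deposited table (506 and 456 RPKM). Their median log2 ratio was -0.23, and 9 of them had a log2 ratio below 0. Limma's moderated test had 1 higher and 3 lower, beside 18.6% and 23.2% of all genes. At an unadjusted p below 0.05 it had the same counts, beside 22.0% and 28.9% of all genes. These germ cell counts were within a few genes of the shares. Rete testis and efferent duct markers had 1 that rose and 0 that fell of 6 measured (21.97 and 16.6 RPKM). Pax8, which rose, reached 1 RPKM only in the Dio3KO-labelled group (0.66 and 1.89 RPKM). Krt8 had means of 10.7 and 2.83 RPKM with ranges apart. Its adjusted p in the authors' deposited table was 0.05, not below the threshold. Limma's moderated test had 1 higher and 2 lower of the 6. Lhx1, one of the 2 lower, reached 1 RPKM only in wild type (1.32 and 0.5 RPKM). Of 3 measured neuronal markers 0 rose and 2 fell (9.11 and 5.89 RPKM over the whole list of 15), and limma had 0 higher and 3 lower. Syt1 and Agrp reached 1 RPKM only in wild type, so the minimum level favoured their direction and nothing is read from this count. The largest ratio of summed means over these marker lists was 2.00, that of the macrophages. A sum is led by its most abundant genes, and some single markers differed more. Among them were the Sertoli cell gene Cldn11 upward (ratio of means 3.59) and Krt8 downward (0.26). Macrophages are also known to express Apoe and Lrp1, and Clu is itself among the Sertoli markers. The part of any cell type in these differences was not tested, and in whole testes more cells of a type and more RNA per cell cannot be told apart.

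The genes beside Lrp8 did not share its difference. Of the 5 protein-coding genes on either side in RefSeq (GRCm38.p6), 8 had values, of which Podn rose and Ndc1 fell. Over all genes 14.0% rose and 15.9% fell, so nothing is read from this count. Podn reached 1 RPKM only in the Dio3KO-labelled group. Magoh, which begins 2.9 kb after the end of Lrp8, had means of 116 and 90.3 RPKM (adjusted p = 0.0865, authors' deposited table). Dmrtb1, on the other side at 98.2 kb, had 1.53 and 1.57 RPKM, and Cpt2, at 27.1 kb, had 19.4 RPKM in both groups. Podn, a small leucine-rich proteoglycan, had 0.98 and 1.57 RPKM and Ndc1, a nucleoporin, 27.96 and 20.95 RPKM.

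**Figure D4:**
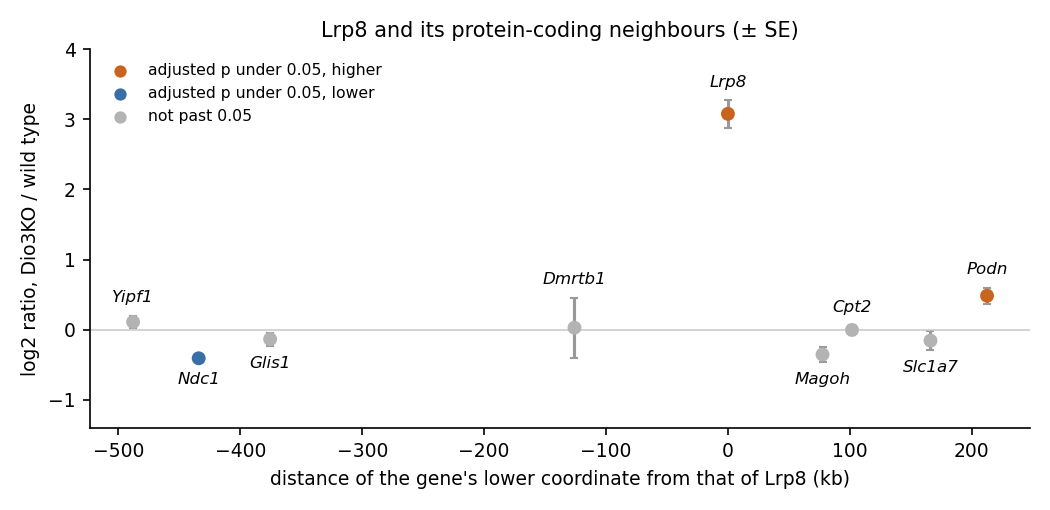
Log2 ratio of Dio3KO-labelled to wild-type means, each with 0.5 RPKM added, for Lrp8 and its 8 neighbours with values (points, bars are ± SE), against the distance in kb of each gene's lower coordinate from that of Lrp8. Lrp8 stands at 3.08, while the neighbours lie between -0.41 (Ndc1) and 0.48 (Podn).

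The 5 genes whose log2 ratio was closest to that of Lrp8, among the 1962 other genes that rose or fell with an average level within 2-fold of its own, were Rasl10a (3.07), a transcript whose symbol had become a date in September (3.07), B4galnt1 (3.13), Acp7 (2.80) and Myoz2 (2.75). Likeness here rests on 2 group means of the same 8 samples. In each of them, as in Lrp8, the allowed ranges of the groups were apart, as they were upward for 12.0% of all genes. The rule chose genes with differences as large as that of Lrp8, so this is not a separate result.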

How the data were processed

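RNA sequencing of 8 testis samples (4 wild type, 4 Dio3KO) was deposited as 1 table of transcripts. FastQC, Novoalign 2.08 and the build mm10 are named in the submitters' processing notes with no role or order. How reads were counted and tested, with which annotation and whether by strand, is not given in the sources used here. This table holds the mean RPKM of each group as computed by the authors, per the file headers, the CV of each group (a ratio of SD to mean, deposited by the authors) and an adjusted p-value deposited by the authors. Columns were tied to groups by name, and 0 columns of values for single samples were left unused. The 147417 lines held each of 49139 transcripts 3 times, and repeats were dropped. The highest CV was 2.00 in both groups, the SD over the mean of 4 samples of which 1 is above 0, so ranges were computed for 4 samples with the SD as a sample SD, widened by rounding. Depth per sample is unknown, so no counting interval was computed.

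Older symbols were led to current ones through RefSeq, which gave 23767 genes, and 15225 that reached 1 RPKM in at least 1 group were tested. Log2 ratios are log2(RPKM + 0.5) differences of Dio3KO against wild type, which understates the change of low genes, with a delta-method SE from the CVs. The threshold was an adjusted p of 0.05. As an alternative, limma 3.58.1 in R 4.3.3 (squeezeVar with trend and robust) was run on variances from the CVs, with a CV of 0.00 set to 0.0025. Its p-values had Benjamini-Hochberg adjustment over all 15225. The same code was run on simulated data with few changed genes and equal spread in both groups. That run checks the code and not the behaviour of the test on these data. The members, lists and tests were chosen with earlier results of these data known. Genes were named by rule: all members; from each list up to 6 in each direction by smallest p and up to 3 others by level; 5 genes most like Lrp8; and 5 neighbours on either side. Ctsl, Amh, Cldn11, Krt8, Pax8, Lhx1, Cd163, Pmch, Agrp, Syt1, Reln, Dab1, Rbp4, Shc1 and Mylip were named outside this rule, after their values were seen. Marker lists are otherwise given as counts and sums. A few list genes are left out of the lists and counts and are not reported here. Replicate labels do not say whether samples shared a litter.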

Additional observations from a re-analysis of the deposited data

How the results depend on the processing

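The log2 ratio of Lrp8 lay between 2.88 and 3.41 over the pseudocounts of 0.1 and 1 RPKM, both rescalings, the sum of its transcripts and the limma fit. Choosing the transcript by either group's mean gave the same transcript for every member. All 81 log2 ratios of members and Lrp8 transcripts recomputed under these settings kept their sign. For most of them this was fixed in advance. A pseudocount, the limma fit and an unchanged transcript cannot turn a sign, so only the rescalings and the sums over several transcripts could have done so. Pseudocounts, rescalings and sums have no p of their own, so the threshold was tested anew only by limma, which left 7 of 8 members on the same side of 0.05. With a threshold of 0.01 for the adjusted p in the authors' deposited table, 0 members rose (655 of all genes, 4.30%, did), since Lrp8 and Lrp10 stood at 0.0111 and Sorl1 at 0.0178, while the other 4 Lrp8 transcripts were between 0.0088 and 0.0091. The moderated limma test, by contrast, called 4 members higher, among them Lrp1 with a log2 ratio of 0.33 and an adjusted p of 0.0216, where 18.6% of all genes were called higher and 23.2% lower. It called 29 pathway genes higher and 13 lower, against 24 and 10 in the authors' deposited table. No paired analysis was possible because the table holds group means only, and for the same reason no replicate could be left out in turn. Whether 1 sample decides a mean can be read only from the CVs.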
